A study of Mus musculus with 4 samples.

Results

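Wnt ligands are secreted lipid-modified proteins, and this report describes the RNA of 8 of them, Wnt4, Wnt5a, Wnt5b, Wnt6, Wnt7b, Wnt10a, Wnt10b and Wnt11, with 2 genes that every Wnt-secreting cell uses, Wls and Porcn, in sorted basal mammary cells of mice. The 10 genes were chosen by symbol from the 34615 gene rows of the count files, and each symbol matched 1 Ensembl identifier. All 10 were among the 15364 genes that passed the low-count filter.

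Porcn encodes the acyltransferase of the endoplasmic reticulum that attaches a lipid to a conserved serine of Wnt proteins. Wls encodes the membrane carrier that takes the acylated ligand to the cell surface, after which the retromer complex returns the carrier for another round. Wnt4 is known in the mammary gland as a progesterone-induced ligand of hormone-sensing luminal cells, and Wnt5a and Wnt11 are best known for signaling that does not pass through beta-catenin. Wnt10b is known for activating the beta-catenin branch, and its overexpression in the mouse mammary gland causes tumors.

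KO basal cells came from miR-205fl/fl;RosamTmG/mTmG mammary cells, and WT basal cells from WT;RosamTmG/mTmG cells. Both kinds were treated with a Cre adenovirus (Ad-cre) in culture, so the reporter recombination and the virus were common to both groups. SCID-Beige hosts, 3 weeks old and lacking mature T and B lymphocytes, received both kinds of cell by transplantation. Outgrowths were taken after 8 weeks and pooled (40 outgrowths, whether per genotype or in all is not given in the sources used here), and GFP+ CD24+CD49fhigh cells were sorted. There were 2 KO and 2 WT libraries, and the labels do not tell whether replicates were separate pools of outgrowths, so p-values measure only library-to-library spread, which may be technical.

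Gene counts were 60030932 and 47953972 in KO replicates 1 and 2, against 53067076 and 57650462 in WT replicates 1 and 2. KO replicate 2 stood apart from the other 3 libraries before any comparison was made: 12679 genes had a count there, against 18027 to 18897 in the others. Its value lay outside the range of the other 3 libraries for 84.8% of the tested genes. The basal markers Krt5, Trp63 and Acta2 had at least 900.2 CPM in every library (a gene's count relative to its library's total, scaled by the TMM method), and the luminal keratin Krt8 had 245 to 356 CPM. The targeted gene Mir205 had 0 counts in all 4 libraries, so it gave no check of the genotype labels. By counting error alone, this allows up to 0.0477 and 0.0719 CPM in KO and 0.0532 and 0.0504 CPM in WT.

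The deleted microRNA and its 1 perfect seed match among the members are shown because the targeted gene encodes this microRNA. The mature sequence comes from RefSeq (GRCm38.p6, chr1:193507503-193507524, minus strand), with the seed, bases 2 to 8, in capitals. The Wnt5b stretch comes from the longest 3' UTR of a protein-coding transcript in GENCODE M21, with the 7 bases that pair with the seed in capitals.
mmu-miR-205-5p: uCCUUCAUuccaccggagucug
Wnt5b 3' UTR: gtggggattagATGAAGGaactggac
This match to ATGAAGG starts at base 305 of a UTR of 867 bases and is followed by an A, the form called an 8mer. It was the only one in the 10 members, against 12.1% of 12626 tested coding genes for which the annotation gives a 3' UTR. The shorter match TGAAGG, which lies within ATGAAGG, was also present in Wnt5a, Wnt10b and Wls, and 37.8% of the same genes hold it. A match is a string of letters and no measure of binding.

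Promoter windows were looked up to see what expressed and barely detected ligands share in sequence. RefSeq windows from 250 bases before to 50 after the start were found for Wnt4, Wnt5b, Wnt6, Wnt10b, Wnt11 and Wls, which is 6 of the 10 members. Wnt11 and Wnt10b are printed as an expressed ligand and one near the count floor, both in GRCm38.p6. The Wnt11 window is chr7:98834862-98835161 on the plus strand, and the Wnt10b window is chr15:98778101-98778400 on the minus strand.
Wnt11: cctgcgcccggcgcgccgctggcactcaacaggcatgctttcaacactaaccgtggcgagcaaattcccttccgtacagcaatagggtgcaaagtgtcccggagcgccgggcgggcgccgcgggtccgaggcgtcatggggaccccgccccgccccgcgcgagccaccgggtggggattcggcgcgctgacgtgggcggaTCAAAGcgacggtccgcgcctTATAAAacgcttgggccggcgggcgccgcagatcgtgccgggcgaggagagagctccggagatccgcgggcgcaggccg
Wnt10b: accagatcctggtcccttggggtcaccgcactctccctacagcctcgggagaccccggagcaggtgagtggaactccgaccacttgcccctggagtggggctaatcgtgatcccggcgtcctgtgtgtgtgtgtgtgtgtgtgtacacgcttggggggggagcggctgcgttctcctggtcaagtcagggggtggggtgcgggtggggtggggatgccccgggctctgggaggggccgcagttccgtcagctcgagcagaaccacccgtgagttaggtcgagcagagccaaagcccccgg
Capitals mark matches on either strand to CTTTGA, the core of TCF/LEF sites, to CATTCC, the core of TEAD sites, and to TATAAA, the TATA box. CTTTGA was held by 16.0%, CATTCC by 14.7% and TATAAA by 13.6% of 32851 such windows. The Wnt11 window holds TATAAA and CTTTGA (as its reverse complement TCAAAG). The Wnt10b window holds none of the 3, which says only that these letters are not in it. At the first listed start, the windows of Wnt4, Wnt5b, Wnt6 and Wls also held none, as did start 2 of Wnt11. Start 2 of Wnt5b held CATTCC and start 3 held CTTTGA, so the printed pair shows no motif difference by level. At the first listed start, the windows of Wnt4, Wnt5b, Wnt11 and Wnt6 had 51, 47, 45 and 31 CpG dinucleotides, that of Wnt10b had 18 and that of Wls 11, against a median of 7 over all windows. Wnt6, a ligand near the count floor, thus had more CpG than 89.4% of all windows, and Wls, which every library held at 22.6 CPM or more, had more than 58.6%.

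Basal cells held RNA of 4 of the 8 ligands at 5 CPM or more in every library: Wnt5a, Wnt10a, Wnt5b and Wnt11. Wnt4 and Wnt7b were low or variable, falling under that level in at least 1 library. Wnt10b and Wnt6 lay near the count floor, taken as under 1 CPM in at least 2 libraries. For Wnt10b these were the KO libraries alone, with 127 and 72 counts in WT, and without KO replicate 2 only Wnt6 was in that class. The 7 other Wnt ligands measured (of 11 listed) added little: Wnt2b, the highest, had 7.54 and 1.13 CPM in KO and 4.75 and 4.62 CPM in WT, Wnt7a had 1.69 and 0 CPM in KO and 1.69 and 1.90 CPM in WT, and Wnt16, Wnt8b, Wnt1 and Wnt8a stayed under 1 CPM throughout. Wnt2, a ligand known from mammary stroma, had 0 counts in all 4 libraries. By counting error alone, this allows up to 0.0719 CPM in the shallowest library. Wnt3, Wnt3a, Wnt9a and Wnt9b were not analysed here.

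**Figure D1:**
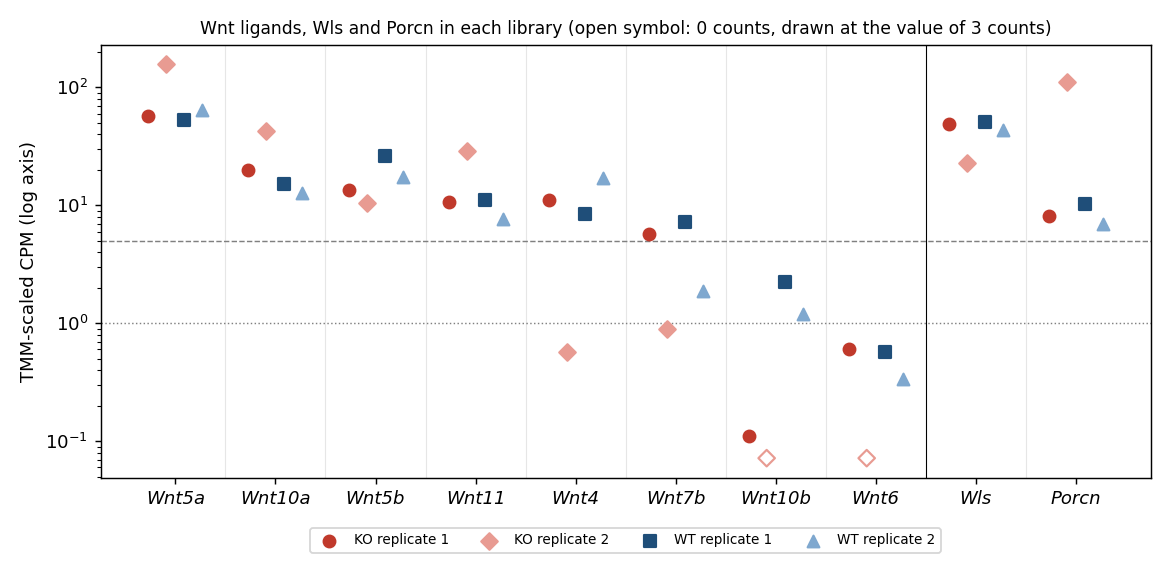
TMM-scaled CPM (log axis) of the 8 ligands, Wls and Porcn in each library, with a dashed line at 5 CPM, a dotted line at 1 CPM, and open symbols for 0 counts drawn at the value of 3 counts. Wnt5a, Wnt10a, Wnt5b and Wnt11 lie above 5 CPM in all 4 libraries, while the KO replicate 2 diamonds lie at the top or bottom of every gene.

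Levels were compared between ligands per kilobase of annotated exon. Wnt5a averaged 10.6 ± 6.35 CPM per kilobase (SD, n = 4 libraries), Wnt10a 9.14 ± 5.59, Wnt5b 6.33 ± 2.57, Wnt11 3.54 ± 2.37, Wnt4 2.23 ± 1.64, Wnt7b 0.805 ± 0.621, Wnt10b 0.263 ± 0.311 and Wnt6 0.172 ± 0.127 CPM per kilobase. The ranges over libraries overlapped in all 7 neighbouring pairs of this order. Wnt5a exceeded Wnt10a in 3 of 4 libraries, Wnt10a exceeded Wnt5b in 2, Wnt5b exceeded Wnt11 in 3, and Wnt11 exceeded Wnt4 in 2. Wnt7b exceeded Wnt10b in 4 of 4 libraries. Wnt5a, Wnt10a and Wnt5b took the top 3 places in KO replicate 1 and both WT libraries, and in KO replicate 2 Wnt11 stood in place 3 and Wnt5b in place 4.

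**Figure D2:**
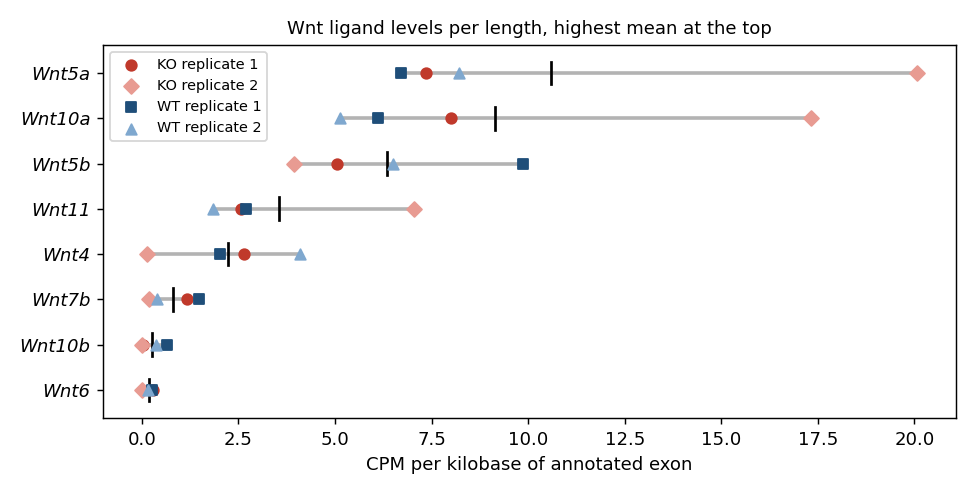
CPM per kilobase of annotated exon for the 8 ligands, with a symbol per library, a grey bar from lowest to highest library and a black tick at the mean. Neighbouring ligands overlap, and the longest bars, those of Wnt5a and Wnt10a, reach 20.1 and 17.3 CPM per kilobase in KO replicate 2.

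The summed level of the 8 ligands was 27.1 and 48.7 CPM per kilobase in KO and 29.8 and 26.7 in WT. KO replicate 1 lay between the WT libraries, and KO replicate 2 lay above them. Wnt5a took 27.2% and 41.2% of this sum in KO and 22.5% and 30.8% in WT. Wnt10a took 29.6% and 35.6% in KO and 20.5% and 19.2% in WT, and Wnt5b took 18.6% and 8.10% in KO and 33.1% and 24.4% in WT. Wnt11 took 9.44% and 14.5% in KO and 9.08% and 6.92% in WT, and Wnt10b 0.121% and 0% in KO and 2.22% and 1.33% in WT. The shares of Wnt10a and Wnt11 were thus higher and those of Wnt5b and Wnt10b lower in both KO libraries, while those of the other 4 ligands overlapped. For comparison, the CPM of 32.4% of all tested genes did not overlap between genotypes. The CPM of Wnt10a, Wnt5b and Wnt10b did not overlap either, whereas that of Wnt11 did. Shares of 1 sum move together, so the 32.4% is no matched background for them.

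**Figure D3:**
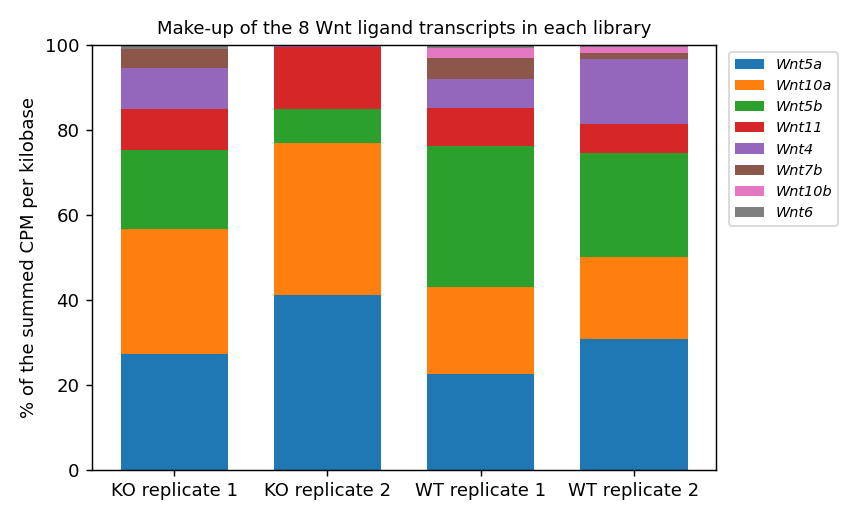
Share of each ligand in the summed CPM per kilobase of the 8 ligands, in percent, with 1 stacked bar per library. Wnt5b is the thinner band in both KO bars (18.6% and 8.10%) and the thicker one in both WT bars (33.1% and 24.4%), and Wnt4 and Wnt7b almost vanish from the KO replicate 2 bar.

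KO was compared with WT to ask whether basal cells from miR-205fl/fl donors treated with Cre change their own supply of Wnt ligands, Wnt signaling being named in the title of the series. With the edgeR quasi-likelihood test and Benjamini-Hochberg adjustment over 15364 genes, 0 of the 10 members passed an adjusted p of 0.05, as did 0.0% of all tested genes, and each member's adjusted p was 0.9989. At an unadjusted p below 0.05 this test gave 0 members and 147 genes in all (0.957%). In other fits of all 4 libraries, the unadjusted p of Porcn was 0.005493 with DESeq2 and 0.01771 in edgeR with no filter, and that of Wnt10b was 0.04518 with limma voom, with adjusted p of 0.9694, 0.9999 and 0.8883. DESeq2 called 3 genes higher (0.0195%) and 1 lower (0.00651%), limma voom called 0, and none of these was a member. In 3 members the KO and WT libraries did not overlap, Wnt10a being higher in KO and Wnt5b and Wnt10b lower. Over all tested genes, both KO libraries were above both WT libraries in 13.2% and below them in 19.2%, or 32.4% in either direction. In all 10 members KO replicate 2 was the highest or lowest library, as in 84.8% of tested genes (above the others in 32.0%, below in 52.7%), and KO replicate 1 lay outside the WT range in 4 (62.3%). Relative to the WT mean, KO replicate 2 was 2-fold or more higher in 4 members (15.0% of tested genes) and 2-fold or more lower in 6 (44.0%). In KO replicate 1 only Wnt10b was that far off, where 5.34% of tested genes were 2-fold or more higher and 10.4% lower.

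**Figure D4:**
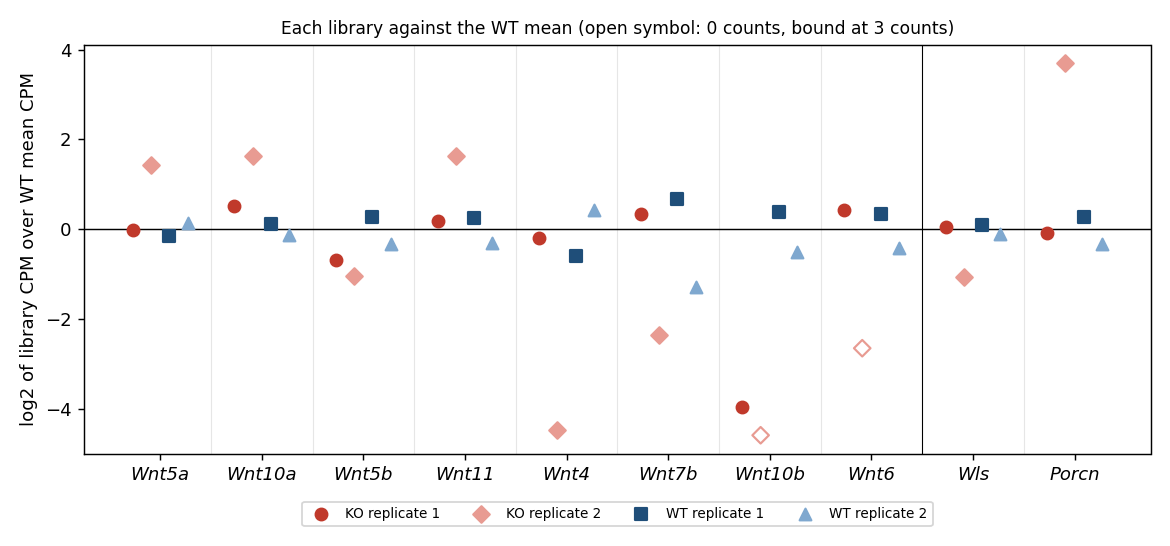
log2 of each library's CPM over the mean CPM of the WT libraries, for the 8 ligands, Wls and Porcn, with open symbols for 0 counts placed at the bound of 3 counts. The KO replicate 1 circles lie within 1 log2 unit of the WT mean except for Wnt10b (-3.96), whereas the KO replicate 2 diamonds run from the Wnt10b bound, just below Wnt4 (-4.48), up to 3.69 for Porcn.

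Wnt10a (ENSMUSG00000026167, chromosome 1) was the expressed ligand whose KO libraries both lay above WT. It had 19.8 and 42.8 CPM in KO and 15.1 and 12.7 CPM in WT. The KO mean was 2.26 times the WT mean, with a log2 fold change of 1.17 ± 0.59 (SE; edgeR adjusted p = 0.9989), and without KO replicate 2 it was 0.52 ± 0.41. Wnt6 (ENSMUSG00000033227), the coding gene next to Wnt10a, had 38 and 0 counts in KO and 32 and 20 in WT. Its log2 fold change of -0.57 ± 2.42 rests on the 0 counts in KO replicate 2, where 58.5% of genes under 1 CPM in WT had none, and it was 0.42 ± 1.75 without that library. Per kilobase, Wnt6 was at 0.0344 of the Wnt10a level in KO replicate 1 and at 0.0424 and 0.0299 in WT, so these neighbouring genes stood far apart in level in each of those 3 libraries.

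Wnt5b (ENSMUSG00000030170, chromosome 6), the member with the seed match printed above, was the expressed ligand whose KO libraries both lay below WT. It had 13.4 and 10.5 CPM in KO and 26.2 and 17.2 CPM in WT, with a log2 fold change of -0.86 ± 0.60 (edgeR adjusted p = 0.9989). The fold between the WT libraries was 1.52 and that between the WT and KO means 1.82. Its log2 fold change kept its sign in all 12 alternatives, from -1.13 to -0.53, and passed the threshold in no fit of all libraries. Both KO libraries lay below both WT libraries, as in 19.2% of tested genes, and the alternatives reuse these libraries. The kept sign therefore adds no independent evidence. Its paralogue Wnt5a (ENSMUSG00000021994, chromosome 14) had 57.6 and 157 CPM in KO and 52.4 and 64.2 CPM in WT, so KO replicate 1 lay between the WT libraries and KO replicate 2 above them. The log2 fold change of Wnt5a was 0.88 ± 0.53 with all libraries and -0.01 ± 0.27 without KO replicate 2. Within libraries, the ratio of Wnt5b to Wnt5a per kilobase was 0.684 and 0.197 in KO and 1.47 and 0.791 in WT.

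Wnt10b (ENSMUSG00000022996, chromosome 15) showed its difference in both KO libraries. It had 7 and 0 counts in KO and 127 and 72 in WT, or 0.111 and 0 CPM in KO and 2.25 and 1.21 CPM in WT. The WT mean was 15.6 times the level in KO replicate 1, with a counting interval of 7.55 to 38.7 from the 7 counts alone. In KO replicate 2 the WT mean was 24.1 times a floor of 3 counts, a bound for counting error only. Among 3508 tested genes at 1 to 5 CPM in WT, 2.88% were 8-fold or more lower in KO replicate 1, and 40.1% had 0 counts in KO replicate 2. The edgeR test gave an unadjusted p of 0.09635 and an adjusted p of 0.9989 with all libraries, and an unadjusted p of 0.03885 and an adjusted p of 0.9998 without KO replicate 2. These intervals and floors hold counting error alone, because reads from amplified libraries are not independent molecules. Wnt1, the coding gene beside Wnt10b, had 7 and 0 counts in KO and 3 and 4 in WT and was not tested.

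Wnt11 (ENSMUSG00000015957, chromosome 7) followed the pattern of Wnt5a across libraries. It had 10.6 and 29.1 CPM in KO and 11.2 and 7.63 CPM in WT, so only KO replicate 2 lay outside the WT range. Its log2 fold change was 1.08 ± 0.78, and 0.17 ± 0.50 without KO replicate 2. Among 3245 tested genes at 5 to 20 CPM in WT, 18.5% were 2-fold or more higher in KO replicate 2, and 16.2% of 3475 genes at 20 to 100 CPM were, the level bands of Wnt10a and Wnt11 and of Wnt5a. In KO replicate 1 the same shares were 0.924% and 0.0288%.

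Wnt4 (ENSMUSG00000036856, chromosome 4) and Wnt7b (ENSMUSG00000022382, chromosome 15) had counts in all 4 libraries but fell below 1 CPM in KO replicate 2. Wnt4 had 11.1 and 0.575 CPM in KO (699 and 24 counts) and 8.51 and 17.1 CPM in WT (480 and 1020 counts). KO replicate 1 lay between the WT libraries, and the WT mean was 22.3 times the level in KO replicate 2. A fall of 8-fold or more in that library was seen in 25.9% of genes at 5 to 20 CPM in WT. Wnt7b had 5.74 and 0.887 CPM in KO and 7.25 and 1.88 CPM in WT, with a fold of 3.86 between the WT libraries alone. The log2 fold change was -1.13 ± 1.44 for Wnt4 and -0.46 ± 1.46 for Wnt7b, and without KO replicate 2 it was -0.20 and 0.33.

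Hormone-sensing luminal markers, the cells in which Wnt4 is best known, had summed levels of 118 and 355 CPM in KO and 128 and 207 CPM in WT over 9 measured genes, of which 0 were higher and 2 lower in both KO libraries (13.2% and 19.2% of tested genes). Tnfsf11 was at 0 in both KO libraries and in WT replicate 1. KO replicate 2 thus had the lowest Wnt4 and the highest sum, most of it Prlr (210.0 CPM) and Foxa1 (89.1 CPM). Esr1, Prom1, Cited1 and Areg were at their lowest there. Esr1 had 5.49 CPM against 13.9 to 32.1 CPM in the other 3 libraries, and Prom1 0.383 against 7.06 to 19.9 CPM. Cited1 had 0.0719 against 0.922 to 2.94 CPM, and Areg 23.5 against 28.9 to 32.5 CPM. Ly6a was at its highest in KO replicate 2 (17.7 against 13.8 to 16.6 CPM). Pgr, at 8.41 CPM there, lay within the range of the others (7.47 to 14.1 CPM). The part of such cells in the Wnt4 values was not tested. Fibroblast markers had summed levels of 605 and 786 CPM in KO and 528 and 588 CPM in WT over 8 measured genes, of which 1 was higher and 2 were lower in both KO libraries (13.2% and 19.2% of tested genes), with Dpt and Mfap5 at 0 in KO replicate 2. Fbn1 (384 to 487 CPM) and Dcn (89.5 to 221 CPM) made up most of that sum. Both were at their highest in KO replicate 2, as were Pdgfra (24.4 against 7.90 to 11.6 CPM) and Col1a2 (30.9 against 20.95 to 29.35 CPM). Lum and Col3a1 lay within the range of the other libraries there, and Mfap5 was under 1 CPM in every library. Immune markers summed to 97.4 and 319 CPM in KO and 66.9 and 149 CPM in WT. Most of the KO replicate 2 sum was Cd74 (289 CPM). Ptprc and Cd3e were also at their highest there, while Csf1r, Itgam and Lyz2 were at their lowest. Adipocyte markers summed to 32.4 and 139 CPM in KO and 15.9 and 28.5 CPM in WT. Adipoq, Plin1, Lep and Cfd were at 0 in KO replicate 2, so the sum there was Fabp4 alone. Luminal progenitor markers summed to 2388 and 3487 CPM in KO and 2206 and 2848 CPM in WT, with Elf5 at 0 in KO replicate 2. Plet1 (1856 CPM) and Lcn2 (1456 CPM) made up most of the KO replicate 2 sum. Aldh1a3 was also at its highest there, while Kit, Cd14 and Ltf were at their lowest. The sums of these lists were highest in KO replicate 2, the library in which Wnt5a, Wnt10a, Wnt11 and Porcn were highest. Pan-luminal markers, at 1010 and 1353 CPM in KO and 891 and 1302 CPM in WT, were too. The endothelial sum was lowest in KO replicate 2 by a small margin, at 178 and 106 CPM in KO and 108 and 218 CPM in WT. Kdr, Emcn and Eng were at their lowest there, while Cdh5, Tek and Flt1 were lower in WT replicate 1. Pericyte markers had 111 and 108 CPM in KO and 80.05 and 191 CPM in WT. Of these, Pdgfrb, Cspg4 and Kcnj8 were at 0 in KO replicate 2, and Kcnj8 had 1 count in WT replicate 1. Rgs5 was also at its lowest in KO replicate 2 (39.46 CPM). Notch3 was at its highest there (51.0 against 7.83 to 18.7 CPM), and Abcc9 (17.75 CPM) lay within the range of the other libraries. Stromal cells are known to express Wnt5a, and the part of RNA from any of these cell types in the members' values was not tested. In a sorted bulk sample, fewer cells of a type and less RNA per cell cannot be told apart.

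**Figure D5:**
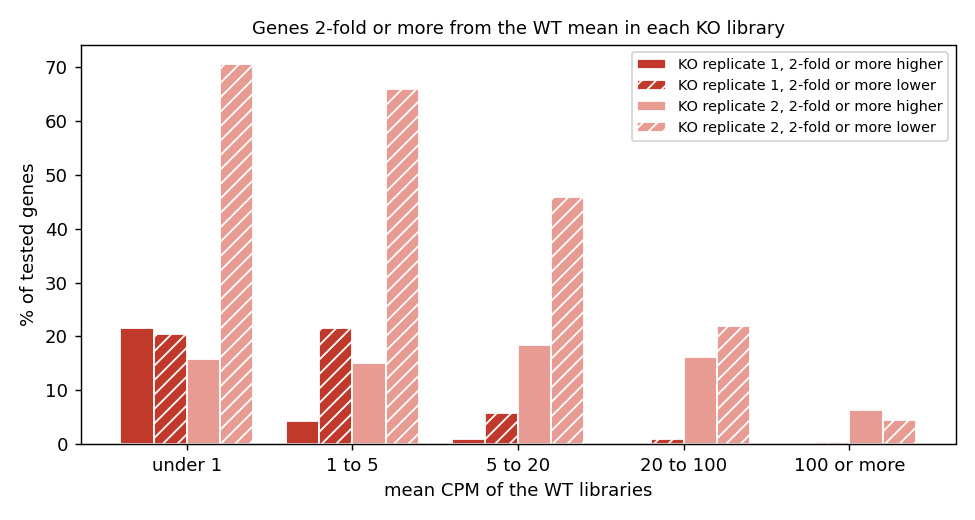
Percent of tested genes 2-fold or more above or below the WT mean in each KO library, by mean CPM of the WT libraries. The bars of KO replicate 2 for lower genes fall with level, at 70.6%, 65.9%, 45.9%, 22.0% and 4.5%, and those of KO replicate 1 for lower genes are at most 21.5%.

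The secretion genes went opposite ways in KO replicate 2, Wls being the lowest there and Porcn the highest of the 4 libraries. Wls (ENSMUSG00000028173, chromosome 3) had 48.7 and 22.6 CPM in KO and 50.4 and 43.8 CPM in WT, with a log2 fold change of -0.40 ± 0.49 (edgeR adjusted p = 0.9989). Porcn (ENSMUSG00000031169, chromosome X) had 8.05 and 111 CPM in KO and 10.3 and 6.89 CPM in WT, with a log2 fold change of 2.79 ± 1.23 (edgeR adjusted p = 0.9989). For both genes KO replicate 1 lay between the WT libraries, and without KO replicate 2 the log2 fold changes were 0.05 ± 0.28 for Wls and -0.09 ± 0.55 for Porcn. The 4650 Porcn counts in KO replicate 2 put it 12.9 times above the WT mean, and 1.23% of genes at 5 to 20 CPM in WT were 8-fold or more higher in that library. Per kilobase, Wls was 2.06 times Porcn in KO replicate 1 and 1.67 and 2.17 times Porcn in WT, whereas in KO replicate 2 Porcn was 14.4 times Wls.

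Without KO replicate 1, which leaves KO replicate 2 as the only KO library, edgeR called 4 members higher in KO (Wnt5a, Wnt10a, Wnt11 and Porcn) and 3 lower (Wnt4, Wnt10b and Wls). In that fit 12.4% of all tested genes were called higher and 22.5% lower, so the genotype and the lower detection of this library cannot be told apart there. Without KO replicate 2, no member and 0.0% of tested genes were called, while 474 genes had an unadjusted p under 0.05. Without WT replicate 1 or WT replicate 2, 5 genes were called higher in each case (0.0305% and 0.0306%), and again no member.

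The retromer and other genes that sort Wnt cargo were measured beside Wls and Porcn. All 10 listed genes of Wnt sorting and release had 5 CPM or more in every library. Of these, 8 had a positive log2 fold change and 2 a negative one, with a median of 0.38 against -0.14 over all tested genes and 0.01 over the 11842 genes with a count in every library. In 6 of the 10 both KO libraries were above both WT libraries (13.2% of tested genes), and 0 passed the edgeR test. Vps35, the retromer core subunit that retrieves Wls, had 113 and 174 CPM in KO and 91.9 and 85.7 CPM in WT. Vps26a, another retromer subunit, had 118 and 190.0 CPM in KO and 98.2 and 87.4 CPM in WT. Tmed5, a cargo receptor of early secretion, had 326 and 512 CPM in KO and 307 and 295 CPM in WT, and Sar1a, a coat GTPase of vesicles leaving the endoplasmic reticulum, had 186 and 73.5 CPM in KO and 161 and 208 CPM in WT. The median of the 10 genes relative to the WT mean was 0.13 in KO replicate 1 and 0.60 in KO replicate 2, on the log2(CPM + 0.05) scale. Over all tested genes it was -0.03 and -0.54. Of those genes, 3418 had 0 counts in KO replicate 2, so they are no matched background for these 10.

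The genes that meet the ligands outside the cell were measured next. Among 12 tested extracellular regulators, 6 fold changes were positive, 6 were negative and 0 passed, with a median of 0.01 that was -0.95 without KO replicate 1 and 0.12 without KO replicate 2. Gpc6, a glypican, had 454 and 240 CPM in KO and 393 and 549 CPM in WT. Sulf1, a sulfatase that trims heparan sulfate and so frees bound Wnt, had 114 and 81.2 CPM in KO and 137 and 169 CPM in WT. Dkk3, a member of the Dickkopf family, had 180 and 399.6 CPM in KO and 165 and 150.5 CPM in WT. Dkk3 and Gpc3 were higher in both KO libraries, and Sulf1 and Sulf2 lower, which is 2 of 12 in each direction against 13.2% and 19.2% of tested genes.

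Of 15 tested receptor genes 11 had 5 CPM or more in every library, while Fzd9 averaged 0.384 CPM and Fzd10 1.09 CPM. Among the 15, 9 fold changes were positive, 6 were negative and 0 passed, with a median of 0.04 that was -0.08 under total count scaling and -0.05 without KO replicate 2. KO and WT libraries did not overlap in 7 (32.4% of tested genes), with 4 higher and 3 lower in KO (13.2% and 19.2% of tested genes). Lrp6, the co-receptor of the beta-catenin branch, had 768 and 1230 CPM in KO and 912 and 1206 CPM in WT, with overlapping groups. The receptor gene Fzd7 had 538 and 651 CPM in KO and 468 and 373 CPM in WT, and Fzd1 had 137 and 82.4 CPM in KO and 189 and 188 CPM in WT. Downstream, 7 of 17 tested transduction genes were positive, 10 were negative and 0 passed (median -0.14). Ctnnb1, which encodes beta-catenin, had 660 and 737 CPM in KO and 540 and 581 CPM in WT, and Gsk3b, a kinase of its destruction complex, had 386 and 386 CPM in KO and 444 and 406 CPM in WT. Tle4, a Groucho-family corepressor, had 56.4 and 111 CPM in KO and 35.8 and 42.9 CPM in WT, and Tcf7l1, a TCF known mainly as a repressor, had 42.6 and 75.8 CPM in KO and 36.7 and 26.8 CPM in WT. The log2 fold change was 1.09 ± 0.44 for Tle4 and 0.90 ± 0.45 for Tcf7l1. Of the 17 genes 3 were higher in both KO libraries (Ctnnb1, Tcf7l1 and Tle4) and 4 lower (Dvl1, Gsk3b, Bcl9 and Tle3), against 13.2% and 19.2% of tested genes.

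Genes known to respond to Wnt gave 7 positive and 4 negative fold changes among 11 tested, with 0 passing. Their median was 0.16 with all libraries, -0.11 without KO replicate 2 and -0.15 without WT replicate 1. Cd44, a hyaluronan receptor, had 2769 and 3979 CPM in KO and 2456 and 2471 CPM in WT. Myc had 785 and 975 CPM in KO and 751 and 825 CPM in WT, and Lgr5 had 89.5 and 258 CPM in KO and 113 and 74.1 CPM in WT. Of the 11 tested genes 1 was higher in both KO libraries (Cd44) and 1 lower (Ascl2), against 13.2% and 19.2% of tested genes. Ascl2 was at a low level, with 0.382 and 0 CPM in KO and 0.64 and 1.23 CPM in WT. Axin2, Rnf43, Znrf3 and Tcf7 were not analysed here.

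The genes most like Wnt5a, the ligand with the highest mean per kilobase, were Nsd2, Rfc1 and Syvn1, by Euclidean distance of centred log2(CPM + 1) over the 4 libraries (0.023, 0.055 and 0.065). Nsd2 had 226 and 606 CPM in KO and 202 and 246 CPM in WT, the same shape set by the high value in KO replicate 2. With 4 libraries such likeness is common: 1274 of 7211 genes at a mean of 10 CPM or more (17.7%) had a Pearson r above 0.95 with Wnt5a.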

How the data were processed

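RNA was measured in 2 KO and 2 WT libraries of sorted basal mammary cells, with NuGEN RNA-Seq library preparation from PicoPure-extracted RNA per the labels' protocols. The deposited values are raw read counts per Ensembl gene, and the submitters' processing notes name TopHat2 (2.02), HTSeq and the builds NCBIM37 and mm9. For the annotation release, strand setting and overlap rule the entry is: not given in the sources used here. The 5 HTSeq summary lines of each file were dropped before library sizes were taken, which left 34615 genes. Reads in no feature made up 57.85% and 61.52% in KO and 61.4% and 57.59% in WT.

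Symbols and union exon lengths came from GENCODE M21 (GRCm38) by identifier (30082 rows, 86.9%), a later build than that of the counts, so levels per kilobase are approximate. Overlapping or antisense reads cannot be told apart; annotated genes overlap exons of Wnt5a, Wnt7b and Wnt11 on the opposite strand. Protein sequences were not used here.

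Genes were tested with edgeR 4.0.16 (R 4.3.3): filterByExpr, TMM, a quasi-likelihood test on genotype alone, Benjamini-Hochberg adjusted over all tested genes. The SE of a log2 fold change is its size divided by the square root of F. Alternatives used DESeq2 1.42.0, limma 3.58.1, other scalings and filters, a replicate block and each library left out, where a lone library is assumed to vary like the others. The procedure was tested on simulated counts, but its recovery is not reported here, so 0 called genes does not mean that no gene differed. The biological coefficient of variation, a measure of spread between libraries of a genotype, was 0.932 over all 4 libraries. Tables used Python 3.11.15, pandas 2.3.3 and numpy 2.4.6. Members, lists and tests were chosen with earlier results of these data known. Named genes were the members, the 2 highest and 2 smallest-p genes of each pathway list (smallest p among genes at a mean of 5 CPM or more; for other ligands no gene qualified), marker checks and the 3 genes most like the top ligand; other ligands named for being at or near 0, Wnt1 as a neighbour and the marker genes and further list members given with values or as not overlapping were chosen after their values were seen.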

Additional observations from a re-analysis of the deposited data

How the results depend on the processing

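The count of 0 called genes and 0 called members was the same with DESeq2 size factors, upper quartile and total count scaling, limma voom, no filter, a mean CPM of 5 or more and the replicate block. The DESeq2 Wald test called 3 genes higher and 1 lower in KO. Leaving out 1 library at a time gave 0 to 2036 genes higher and 0 to 3688 lower. Of the 10 members, 0 to 4 were called higher and 0 to 3 lower, and 0 to 38 genes of the other Wnt lists were called. The upper values are those without KO replicate 1, where 12.4% of 16392 tested genes were called higher and 22.5% lower. How many list genes that fit tested is not given, and Lef1 is in both the transduction and the responsive list. With 1 KO library in that fit, these counts are no result about Wnt genes. Without either WT library 5 genes were higher. Over these 4 leave-outs the log2 fold change ranged from -0.01 to 1.42 for Wnt5a, 0.52 to 1.62 for Wnt10a, -1.13 to -0.53 for Wnt5b, 0.17 to 1.63 for Wnt11, -4.48 to -0.20 for Wnt4, -2.36 to 0.82 for Wnt7b, -9.51 to -3.93 for Wnt10b, -7.58 to 0.42 for Wnt6, -1.06 to 0.05 for Wls and -0.09 to 3.69 for Porcn; the -9.51 and -7.58 are set against 0 counts and depend on the prior count. Of 117 member values under alternatives, which reuse the same libraries, 111 kept their direction. The 6 that reversed were, without KO replicate 2, Wnt5a (-0.01), Wnt6 (0.42), Wnt7b (0.33), Wls (0.05) and Porcn (-0.09), and, without WT replicate 1, Wnt7b (0.82), and the cause was not tested. The median of all tested genes moved from -0.14 to -0.24 under total count scaling, and no scaling reversed a member. Same-numbered libraries did not deviate together (r = 0.00973 across genes). This r rests on 1 difference per genotype, and KO replicate 2 lay outside the others in 84.8% of tested genes. It therefore cannot tell whether the replicate numbers pair libraries. With the replicate block 79 genes had an unadjusted p under 0.05 in edgeR, against 147, and 0 were called. Without KO replicate 2, 5 ligands (Wnt4 joining) reached 5 CPM in every library, and 1 ligand, Wnt6, lay near the count floor, Wnt10b then being low or variable. A mean CPM of 5 or more left no value for Wnt6, Wnt7b, Wnt10b and the other Wnt ligands. The order of the 8 ligands was the same without division by length. Wnt6 and Wnt10b had 0 counts in KO replicate 2, and their differences there end at a floor of 3 counts, which holds counting error alone. Of tested genes at 1 to 5 CPM in WT, 40.1% had 0 counts in KO replicate 2. In KO replicate 1 and WT replicates 1 and 2 the shares were 0.228%, 0.57% and 0.228%. The cause of the lower detection in KO replicate 2 was not tested.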
